A study of Mus musculus with 2 samples.

Results

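The forkhead family is a group of transcription factors that share a winged-helix DNA-binding domain, and it includes Foxp4, the factor whose binding sites were mapped here. The Foxp proteins act mostly as repressors and bind DNA as dimers with themselves or with one another. In fat, Foxo1 restrains the differentiation of preadipocytes and is switched off by insulin signalling, and Foxp1 has been described as a brake on brown and beige adipocyte differentiation in mice. The sites described are those at 10 forkhead genes, Foxp1, Foxp2, Foxp4, Foxo1, Foxo3, Foxq1, Foxa2, Foxj2, Foxk1 and Foxk2.

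A peak was counted for a gene if the deposited file named that gene as nearest or if the peak's midpoint lay within 100 kb of the gene body. This gave 19 of the 3317 peaks, 15 by name and a further 4 by distance. The 10 genes were chosen by where peaks of this same library fell, so the number of genes with a peak is a description and carries no test.

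Cells of the stromal vascular fraction (SVF), the non-adipocyte part of fat with its progenitors, came from inguinal white fat of C57BL/6 mice. After 3 days of growth in 20% FBS they were induced towards beige adipocytes for 48 h in DMEM with 10% FBS. The inducers were troglitazone at 5 µM, T3 at 50 nM, dexamethasone at 1 µM, isobutylmethylxanthine at 0.5 mM and insulin at 5 µg/ml. The series had 1 Foxp4 ChIP library, whose peaks are used here, and 1 input DNA library from cells treated the same way, not analysed here. With 1 library per kind there is no replicate error, the read depth is unknown, and nothing below is a comparison of conditions. A peak list has no expression values, so the cell type was not checked by markers, and binding in more cells cannot be told apart from stronger binding per cell.

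Among the 10 genes, Foxp1 and Foxo3 held 10 of the 19 peaks, and in both the highest peak was the one just upstream of the 5′ end. By the file's nearest gene, 7 of the 10 genes had a peak, against 9.11% of 21887 protein-coding genes. Within 100 kb of the body 8 of 10 had one, against 27.6%, and a peak midpoint lay inside the body of 4 of 10, against 5.36%. A peak within 3 kb of a start site was named for 3 of 10 genes, Foxp1, Foxp2 and Foxo3, against 2.08%. Since positions of these peaks chose the genes, nothing is read from these differences. Taking name and distance together, 9 of 10 genes had a peak, and Foxp4 itself had none.

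**Figure D1:**
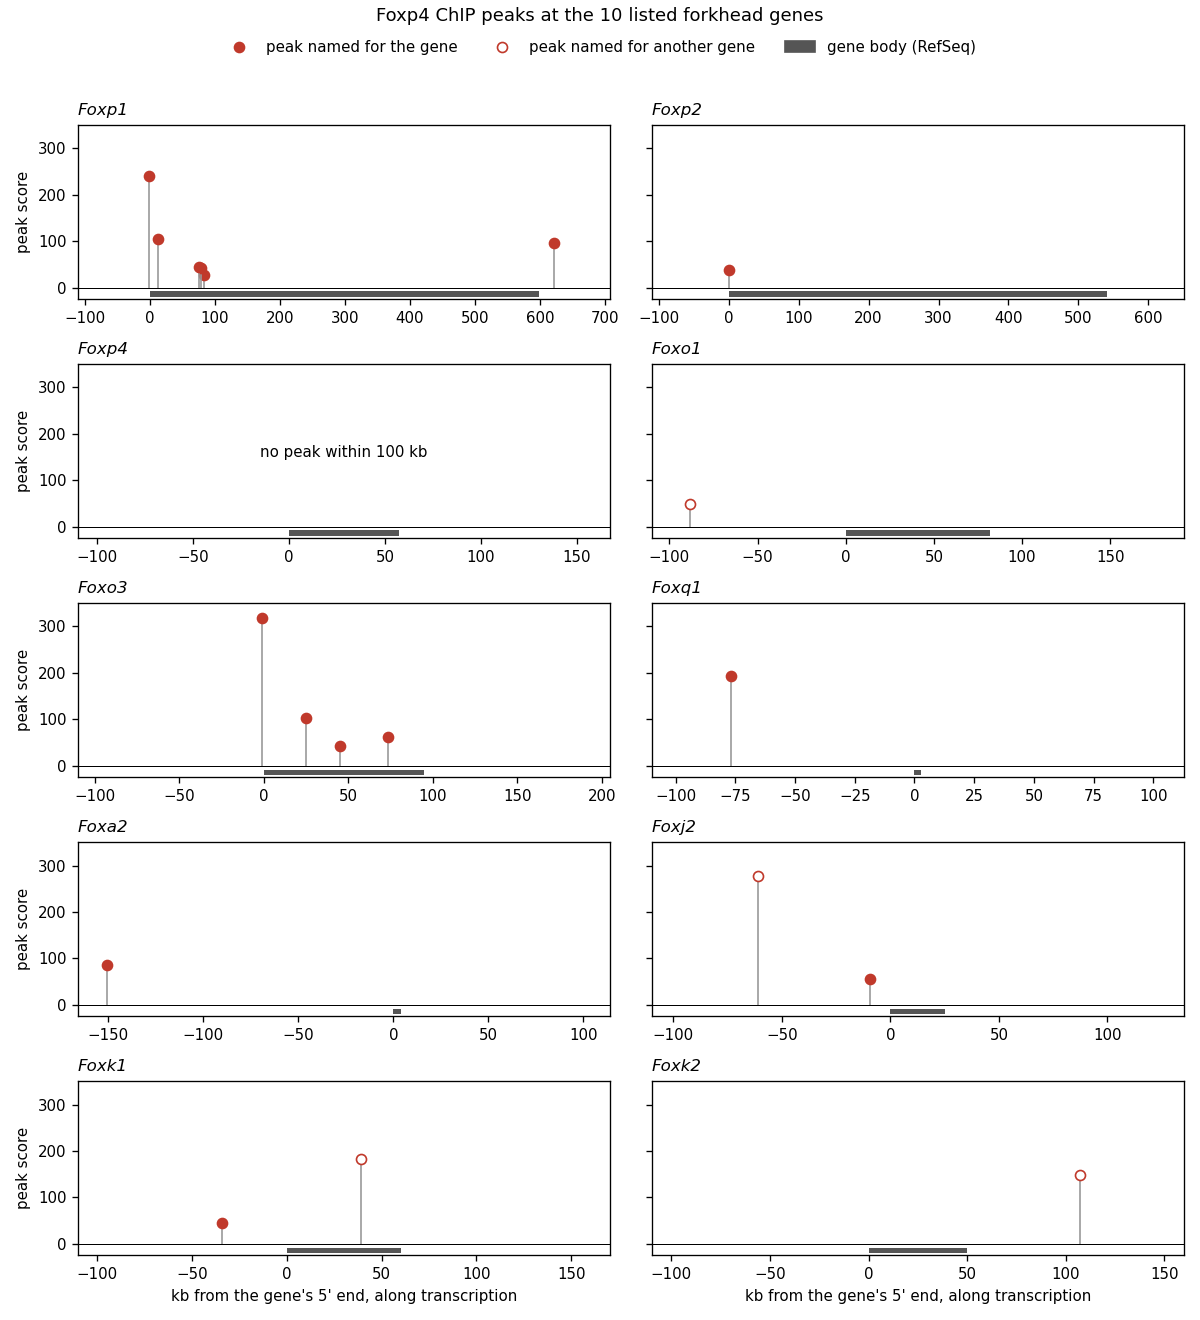
Peaks at the 10 genes. Each panel plots peak score against distance in kb from the 5′ end of the gene along its direction of transcription, with the gene body as a grey bar, filled points for peaks named for that gene and open points for peaks named for another gene; axes in kb differ between panels. Foxp1 and Foxo3 carry 6 and 4 peaks with the highest next to the 5′ end (scores 241 and 319), and the panel of Foxp4 is empty.

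Foxp1, a repressor of the same subfamily as Foxp4, had the most sites. It was named for 6 peaks, a number reached by 0.032% of protein-coding genes. Foxp1 is also long, with a body of 597 kb (chr6:98925342-99522746, minus strand). Of 227 protein-coding genes longer than 500 kb, 26.9% were named by at least 1 peak and 0.441%, which is Foxp1 alone, by at least 6. The limits of 6 peaks and 500 kb were set with the Foxp1 values known, so nothing is read from these shares. The part of length in the Foxp1 count was not tested.

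The strongest Foxp1 peak, with a score of 241 and rank 203 of 3317, lay at chr6:99522676-99523261. The file calls it intergenic and places it at -1975 bp from a start site. In the RefSeq gene table the Foxp1 body reaches further, so that 71 bases of this 586 bp peak lie inside the gene and its midpoint is 223 bp upstream of the 5′ end. The peak carries HOMER's CpG label, which marks CpG islands. Whether it is called upstream or at the start of the gene thus depends on which transcript set is used.

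The other Foxp1 peaks fell into an upstream intron and a site beyond the gene. Intron 1 held 4 peaks. A peak of score 105 lay 13.5 kb into the gene (chr6:99509035-99509496). The remaining 3 lay together in 7.76 kb, 75.6 to 82.9 kb into the gene, with scores of 45, 42 and 28 (chr6:99446947-99447393, chr6:99443583-99443986 and chr6:99439639-99440050).

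These 3 peaks, all below the median score of the list, sat upstream of an internal Foxp1 start site. The file measured them from that start site, 87.4 kb into the gene, and they lie at -4.50, -8.44 and -11.8 kb from it. Spacing this close was uncommon: 6.84% of all peaks had another peak within 5 kb, and among the 19 peaks only these 3 did. The last Foxp1 peak, with a score of 97, lay 23.8 kb beyond the 3′ end on an L1 element (chr6:98901330-98901725). It was 538 kb from the next peak, which is the Foxp1 intron 1 peak of score 28. The nearest protein-coding gene other than Foxp1 was 559 kb from it.

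Promoter sequences were available for some of the genes. RefSeq (GRCm38.p6, the assembly behind mm10) gave 300-base windows, 250 bases before to 50 after a start site, for 7 of the 10 genes. These were Foxp1, Foxp4, Foxo1, Foxo3, Foxa2, Foxj2 and Foxk2, with 11 windows in all, and none of the 19 peaks overlapped one. Foxp2, whose peak spans its start site, had no window. The first Foxp1 window belongs to a start site 1.75 kb inside the RefSeq 5′ end, where the strongest Foxp1 peak lies. The lack of overlap therefore says nothing about peaks at those ends. The windows nearest to a peak were that of Foxo3, 1.02 kb from a peak midpoint, and the first of Foxp1, at 1.73 kb. The windows were searched on both strands for TGTTTAC and TGTTTAT, forms of the forkhead core, for TGTTTG, and for TTGTTTG, which contains it. All windows of the table held these in 3.65%, 4.6%, 18.2% and 5.64% of 32851 cases, and any of them in 24.3%. Of the 11 windows 4 held a match, 2 of the 3 at Foxp1 and 2 of the 3 at Foxa2, where TGTTTG was the 1 motif found. Both Foxp1 windows with a match, out of its 3, are printed here, with matches in capitals, because Foxp1 has the most peaks. The first is chr6:99520944-99521243 (minus strand), whose edge is 1432 bases from the peak of score 241, and the second is chr6:99266466-99266765 (minus strand), with no peak within 173 kb.
Foxp1 window 1: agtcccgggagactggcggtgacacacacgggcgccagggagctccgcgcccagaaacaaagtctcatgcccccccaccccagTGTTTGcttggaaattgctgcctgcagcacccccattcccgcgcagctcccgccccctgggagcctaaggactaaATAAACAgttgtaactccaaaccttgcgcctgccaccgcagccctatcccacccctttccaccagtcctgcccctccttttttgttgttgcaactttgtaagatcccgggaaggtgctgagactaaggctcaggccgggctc
Foxp1 window 2: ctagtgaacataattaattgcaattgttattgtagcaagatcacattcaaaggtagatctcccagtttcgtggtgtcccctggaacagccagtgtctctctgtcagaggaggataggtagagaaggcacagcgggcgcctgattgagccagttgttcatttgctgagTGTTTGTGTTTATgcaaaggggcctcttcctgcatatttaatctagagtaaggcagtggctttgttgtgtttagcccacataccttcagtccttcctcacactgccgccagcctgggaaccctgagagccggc

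In window 1 the letters TGTTTG begin at base 84 and ATAAACA, the reverse complement of TGTTTAT, at base 159. In window 2 TGTTTG begins at base 168 and TGTTTAT follows directly at base 174. Such matches are a description of the letters and not sites, and the sequence under the peaks themselves was not analysed here.

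Foxp2, a repressor of the same subfamily known for its part in vocal learning, had a single weak peak, at its very start. The score was 38 (rank 2549) at chr6:14901244-14901688, annotated as 5′ UTR in exon 1. The peak spans the start site, with 105 bases before the gene and 340 inside it, and its midpoint is 117 bp into the transcript. The rest of the 541 kb body held no peak. The next peak was 619 kb from this one. Measured from the gene body, the closest peak outside it lay 339 kb away, with a score of 31, and was named for Mdfic.

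Foxp4 had no peak named for it and none within 100 kb of its body (chr17:47867133-47924632, minus strand). The closest, with a score of 165, lay 431 kb from the gene and was named for AI661453 (chr17:47435879-47436290). That gap is not unusual in this list, since 37.9% of protein-coding genes lay farther from a peak and 62.1% closer. Its promoter window, chr17:47924583-47924882 on the minus strand, is shown with that of Foxo3, chr10:42276646-42276945 on the minus strand, as the gene with no peak and the gene with the strongest one. Neither window held a match to the 4 motifs.
Foxp4 window: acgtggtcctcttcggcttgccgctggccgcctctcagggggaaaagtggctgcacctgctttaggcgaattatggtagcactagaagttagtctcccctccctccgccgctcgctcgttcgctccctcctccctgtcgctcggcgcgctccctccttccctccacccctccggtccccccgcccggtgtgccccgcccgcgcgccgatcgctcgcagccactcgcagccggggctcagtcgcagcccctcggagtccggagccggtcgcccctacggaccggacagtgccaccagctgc
Foxo3 window: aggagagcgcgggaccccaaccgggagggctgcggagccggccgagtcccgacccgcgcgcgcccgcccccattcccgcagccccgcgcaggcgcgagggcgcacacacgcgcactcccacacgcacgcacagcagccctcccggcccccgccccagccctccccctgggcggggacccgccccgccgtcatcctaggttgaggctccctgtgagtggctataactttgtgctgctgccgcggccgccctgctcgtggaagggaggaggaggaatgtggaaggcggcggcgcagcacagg

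Both windows are rich in G and C, at 70.3% or more, against a median of 52.7% over all windows. This was not particular to them, since the 11 windows of the listed genes ran from 48.7% (Foxp1 window 2) to 79.3% (Foxk2). No match says only that these letters are not in these 300 bases.

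Foxo3, a target of insulin and Akt signalling that controls stress resistance and autophagy genes, had the highest score of the 10 genes. The peak scored 319 (rank 113) and was the widest of the 19 at 741 bp (chr10:42277593-42278333). The file puts it at -1221 bp from the start site and gives it the CpG label. Its edge is 897 bases from the RefSeq body and 647 bases from the promoter window printed above.

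Another 3 peaks lay in intron 2 of Foxo3, spread along the gene. They scored 102 at 25.1 kb into the gene (chr10:42251418-42251795), 42 at 45.1 kb (chr10:42231398-42231719) and 62 at 73.2 kb (chr10:42203316-42203746). The peaks stood 20.0 to 28.0 kb apart. At least 4 peaks, as at Foxo3 and Foxp1, were named for 0.21% of protein-coding genes. The Foxo3 body is 94.9 kb long, and its 13.6 peaks per Mb of body and flanks were the most among the 10 genes. Next came Foxj2 at 8.88 and Foxk1 at 7.68, each from 2 peaks, and then Foxp1 at 7.52. Foxp2 had 1.35.

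In both Foxp1 and Foxo3 the highest peak was also the closest to a start site. Among all 176 genes named by at least 3 peaks this was so for 52 (29.5%).

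Foxo1, which insulin signalling also controls, had no peak named for it. Within 100 kb lay 1 peak of score 48 (chr3:52179936-52180458), 88.1 kb upstream of the 5′ end. The file names it for Maml3, a coactivator of Notch signalling, from whose start site it is 75.2 kb away. The 2 genes flank the peak at similar distances, so naming it for Foxo1 or for Maml3 rests on the assignment. This peak was the farthest of those included by distance. The next one out at Foxo1 lay 123 kb away with a score of 25.

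Foxk1 and Foxk2, factors known for promoting glycolysis and for repressing autophagy genes, had their strongest peaks named for other genes in the file. At Foxk1 a peak of score 183 (rank 315) lay inside the gene, in intron 2 and 39.1 kb from its 5′ end (chr5:142440372-142440804). The file names Ap5z1, a subunit of an adaptor complex, because the start site of Ap5z1 is 23.3 kb away. The peak named for Foxk1 was weaker, with a score of 44, at -33.9 kb and with the CpG label (chr5:142367382-142367736).

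At Foxk2 the 1 peak, with a score of 149 (rank 443), lay 57.5 kb beyond the 3′ end (chr11:121367167-121367576). It sits in intron 1 of Rab40b, a small GTPase gene, and is named for Wdr45b, an autophagy gene, at -12.9 kb. There are 6 protein-coding genes within 100 kb of it, against 4 around the intron peak of Foxk1.

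Foxj2, a transcriptional activator, had the second highest score of the 10 genes, from a peak named for its neighbour. A peak of score 277 (rank 156) lay 61.1 kb upstream on a CAAA simple repeat (chr6:122758881-122759317). The file calls it intergenic and names Slc2a3, a glucose transporter gene, at -16.4 kb, whereas the RefSeq body of Slc2a3 includes it. The peak named for Foxj2 itself scored 55 and lay 9.48 kb upstream (chr6:122810559-122810846), with a width of 288 bp, the smallest of the 19. It has 5 protein-coding genes within 100 kb, among them Nanog, the pluripotency factor gene, and the complement receptor gene C3ar1.

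Foxq1 and Foxa2 were reached only by distant intergenic peaks. The Foxq1 peak scored 193 (rank 284) at -76.6 kb (chr13:31481241-31481880). Foxq1, whose loss gives the satin coat in mice, lies beside the forkhead genes Foxf2 and Foxc1. No other protein-coding gene lay within 100 kb of the peak, and Foxf2 was 144 kb from it. The Foxa2 peak scored 85 (rank 1121) at -151 kb (chr2:148197711-148198136). Foxa2, a factor that opens chromatin in liver and endoderm, thus entered by name alone, and no protein-coding gene lay within 100 kb of this peak.

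**Figure D2:**
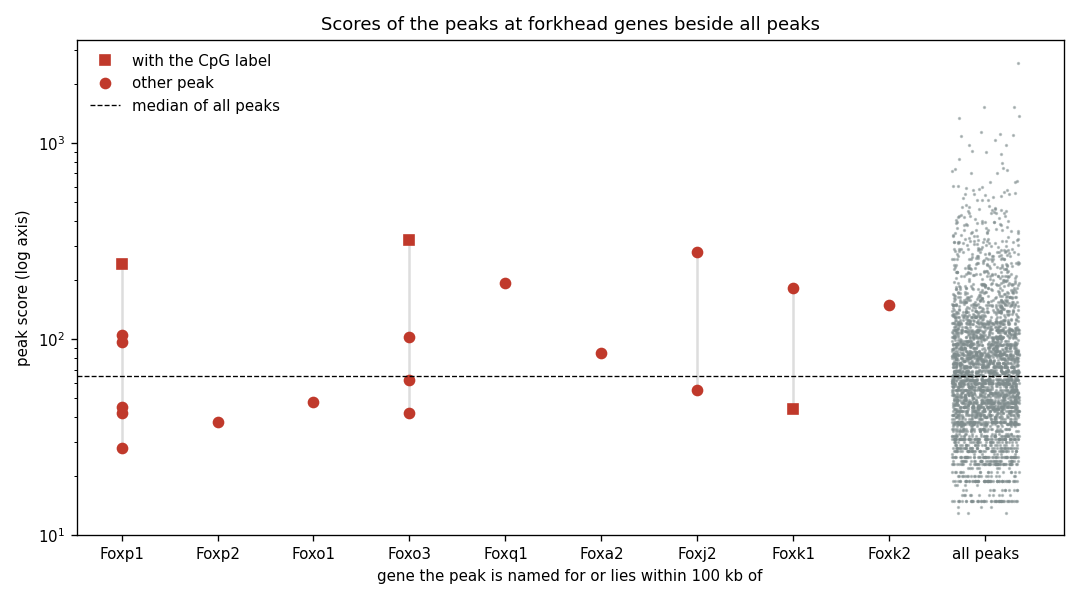
Peak scores by gene. The vertical log axis gives the authors' score of each peak, with the 9 genes that have a peak on the left (squares for peaks with the CpG label) and all 3317 peaks at the far right; the dashed line is the median of all peaks, 65. The peaks at forkhead genes run from 28 to 319 and lie on both sides of the median.

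As a group the 19 peaks took in weak and strong sites. Their median score was 85 (range 28 to 319), against 65 over all 3317 peaks (13 to 2569), and 10 of the 19 lay above that median. The direction depended on which peaks were counted, since the median was 62 over the 15 peaks named for the genes, and also 62 without the 2 peaks on repeats. Their median width was 431 bp, against 393 bp over all peaks. Of the 19, 9 were intergenic (47.4%), 9 were intronic (47.4%), 1 was in a 5′ UTR and 0 were annotated as promoters. Over all peaks the shares were 50.5% intergenic, 38.3% intronic and 8.38% promoter. Repeats were annotated at 2 of the 19 (10.5%), against 23.3% of all peaks.

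The CpG label was held by 3 of the 19 peaks (15.8%), those at Foxp1, Foxo3 and Foxk1, against 41 of all peaks (1.24%). These 41 had a median score of 50 (range 19 to 426). The Foxo3 and Foxp1 peaks ranked 2 and 3 among them and the Foxk1 peak 26. All 41 were intergenic (25) or intronic (16), so peaks of other classes, promoters included, carry no such label.

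The rest of the forkhead family had few sites. Of 45 family symbols, 44 were found in the RefSeq table, and 34 of them are not among the 10 genes. None of these 34 was named by a peak, against 7 of the 10 and 9.11% of protein-coding genes. Since the 10 were picked with the peaks known, this split follows from the choice. Within 100 kb, 4 of the 34 had a peak, against 27.6% of protein-coding genes. A peak lay inside the body of 1 of the 34, against 5.36%. The 34 are what the same choice left, so nothing is read from these shares either.

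Foxn3, a repressor linked to the cell cycle checkpoint, was the 1 of these 34 genes with a peak in its body. That peak scored 137 and lay in intron 4 (chr12:99260129-99260443), but the file names it for 4930474N09Rik. A second, of score 102, lay 35.3 kb outside the gene (chr12:99598747-99599113). The others were weaker, with a score of 43 at 60.4 kb from Foxh1, a partner of Smad proteins, 39 at 96.2 kb from Foxn4, and 21 at 46.3 kb from Foxr1.

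**Figure D3:**
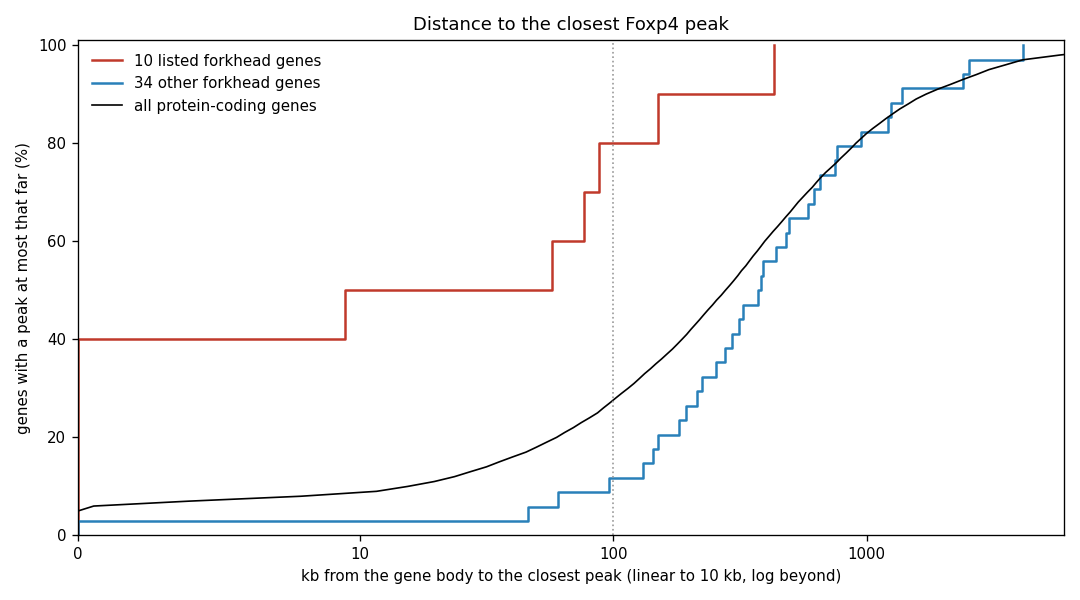
Distance to the closest peak. The horizontal axis gives kb from the gene body to the closest peak (linear to 10 kb, log beyond) and the vertical axis the percentage of genes with a peak at most that far, for the 10 listed genes, the 34 other forkhead genes and all protein-coding genes; the dotted line marks 100 kb. At 100 kb the curves stand at 8 of 10 listed genes, 4 of 34 other forkhead genes and 27.6% of all protein-coding genes.

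Gene length moved with these counts. The median body length was 59.0 kb for the 10 genes, 3.99 kb for the 34 others and 17.2 kb for all protein-coding genes, and a longer body has more room for peaks. The median distance to the closest peak was 33.5 kb for the 10 genes, 378 kb for the 34 others and 277 kb for all protein-coding genes. The part of length in the counts was not tested.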

How the data were processed

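Peaks of 1 Foxp4 ChIP library were used. Per the file headers, the authors annotated a narrowPeak file on mm10 with HOMER's annotatePeaks.pl. The submitters' processing notes list MACS2, Bowtie2, SAMtools, Picard and deepTools 3.3.0, with no role for each. The deposited score of each peak is a whole number of unstated scale. It was used only to rank and describe peaks, since such scores usually depend on depth as well as on enrichment. The use of the input in peak calling is not given in the sources.

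Every one of the 3317 peaks was kept; 1 line held none. Names, classes and distances to start sites are the file's. Gene bodies came from RefSeq (GRCm38.p6), in which 2459 of 2462 nearest genes were found by gene number, and strand from the promoter table or the sign of the file's distance. Peaks were placed by their midpoints. The counting by distance was checked by placing a simulated peak at a known distance from each of 200 genes, 1 gene at a time, all recovered. Gene name and start-site distance were preset in it, so the file's naming was not checked. Python 3.11.15, pandas 2.3.3, NumPy 2.4.6, SciPy 1.17.1 and matplotlib 3.10.9 were used.

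The genes, lists and motifs were chosen with earlier results of these data known, and all 10 genes and every peak at them are named. Genes near these peaks, and forkhead genes with a peak within 100 kb, were named by rule. The limits of 3, 4 and 6 peaks, 5 kb and 500 kb and the CpG share were chosen after values were seen. No group was compared and no test was made. Alternatives covered windows, score limits, repeats and assignment.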

Additional observations from a re-analysis of the deposited data

How the results depend on the processing

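Of 35 alternative values, 26 kept the counts within 1.5 times of those reported, or the median score within its binomial 95% interval (44 to 183). The other 9 did not. The interval takes the peaks of 1 library as independent and is wide. Medians from 62 to 166 all counted as kept, so this label does not show that the median score was stable. With a window of 20 kb or 50 kb around the body, 5 of 10 genes had a peak instead of 8, because Foxo1, Foxq1 and Foxk2 were reached only beyond 50 kb. By the file's distances, 1 gene, Foxp2, had a peak within 1 kb of a start site instead of 3, although the Foxp1 peak at -1975 bp in the file is 223 bp from the RefSeq 5′ end. With only peaks at or above the median score, 7 peaks were named for the genes instead of 15 and 9 lay within 100 kb instead of 18. The genes named then were 4 instead of 7, and 4 of all forkhead genes instead of 7. Counting peaks inside the gene bodies, an alternative added after the data were seen, gave 9 peaks at 4 genes instead of 15 at 7. Leaving out peaks on repeats changed no count by more than 1.5 times, and the median score was then 62, as it was over the peaks named for the genes, in both cases below the 65 of all peaks. No paired analysis was possible because the result comes from 1 library and no test. Read depth is unknown, so a gene with no peak is one with none called in this library.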

Other observations

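The reassignment seen at Foxk1 and Foxn3 was common in the list. Of 1434 peaks with their midpoint inside a protein-coding gene body, 375 (26.2%) were named for another gene. Of the 1173 protein-coding genes with a peak in the body, 276 (23.5%) were named by no peak at all. Among the peaks at the 10 forkhead genes, 11 lay in a protein-coding body and 2 of these were named elsewhere, the one in Foxk1, named for Ap5z1, and the one in Rab40b, named for Wdr45b.

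The class "intergenic" also depended on the gene models. Of 1674 peaks that the file calls intergenic, 71 (4.24%) lay inside a protein-coding body of the RefSeq table, among them the peak of score 277 in Slc2a3.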
